A study of Mus musculus with 16 samples.

Results

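Rosiglitazone was compared with its vehicle in the epididymal white fat (eWAT, the visceral depot beside the testis) of wild-type (WT) mice. The comparison rests on 4 libraries of the 16 in the series, namely 2 from WT eWAT after vehicle and 2 from WT eWAT after rosiglitazone, numbered 1 and 2 in each group. They are the libraries that the labels give this depot, genotype and these treatments, and all 13669 genes with at least 1 FPKM in 2 or more of the 16 libraries were tested, out of 14023 in the table. FPKM is a transcript level scaled to transcript length and library size. Per the labels, the mice ate chow up to 10 weeks of age, then a high-fat diet (60% of calories) during a further 19 weeks, and were then given rosiglitazone at 10 mg/kg, or its vehicle of 1% methylcellulose, by gavage for 1 week. Both groups carry PPARg without the K107R change that other mice of the series carry. As references served a pair of other comparisons: the same drug in inguinal fat (iWAT, a subcutaneous depot) of WT mice, and the same drug in eWAT of mice homozygous for PPARg-K107R, with 2 libraries in each group. Whether a group's libraries stand for separate mice, pools or repeats of one sample is not in the labels. The p-values reflect differences between libraries only, and these may be technical.

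PPARg is the nuclear receptor that drives fat cell formation and fat storage, and rosiglitazone is its synthetic agonist. PPARg binds DNA as a partner of RXR and turns on genes that take up, esterify, coat and burn fatty acids, and it can also lower inflammatory transcription in fat cells and macrophages. Epididymal fat of obese mice is known for its many macrophages, so a depot holds RNA of fat cells, vessels, fibroblasts and immune cells together.

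The table gives FPKM and no read counts, so sequencing depth is unknown and no interval for counting error is given. The median FPKM was 9.58 and 7.87 in vehicle libraries 1 and 2 and 9.61 and 7.92 in rosiglitazone libraries 1 and 2. Libraries of the same number were closer to each other than libraries of the same treatment. The median absolute log2 difference per gene was 0.107 between the number 1 libraries of the 2 treatments and 0.127 between their number 2 libraries. It was 0.247 between the 2 vehicle libraries and 0.269 between the 2 rosiglitazone libraries. Beta-actin, Actb, shows the shift by number, with 1553 and 216 FPKM after vehicle and 1919 and 261 FPKM after rosiglitazone in libraries 1 and 2. Each test therefore compares treatments within a number. The depot was checked against defining markers of fat cells: Fabp4, the fatty acid binding protein of fat cells, was at 18777 and 14168 FPKM after vehicle and 23048 and 18889 FPKM after rosiglitazone. Markers of epididymal epithelium summed to between 6.17 and 8.03 FPKM in the 4 libraries, with 7 of the 12 genes at 0 in at least 1 of them.

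At an adjusted p under 0.05 (limma, Benjamini-Hochberg over all genes tested), 337 genes changed, which is 2.47% of those tested. Of these, 139 rose (1.02% of genes tested) and 198 fell (1.45%), and 1434 genes had an unadjusted p under 0.05. Both rosiglitazone libraries lay on the same side of both vehicle libraries in 335 of the 337; over all genes tested, 15.5% lay wholly above and 11.3% wholly below. The exceptions were the class I gene H2-Q7 and Sept1, named after their values were seen. Groups that stand apart, as described below for single genes, are thus the rule among genes that passed and add no support. Most changes were modest, with a median size of 0.71 on the log2 scale among genes that rose and 0.74 among those that fell. A change over 1 on that scale was seen in 30 that rose and 37 that fell. The median over all genes was 0.03. Without the replicate number in the fit, 61 genes passed (0.446% of those tested), all of them among the 337, and leaving out any 1 of the 4 libraries left between 82 and 91. With the eWAT libraries alone 14 genes passed, in a fit with 3 residual degrees of freedom. Gene lists lost members in the same way. Of the 50 lists, 40 had at least 1 gene that passed, 20 of these had none without the replicate number, and 16 had none in at least 1 of the 4 fits without a library. The counts of members given for each list are to be read beside 1.02% of all genes for those that rose and 1.45% for those that fell, and a gene can stand in several lists.

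**Figure D1:**
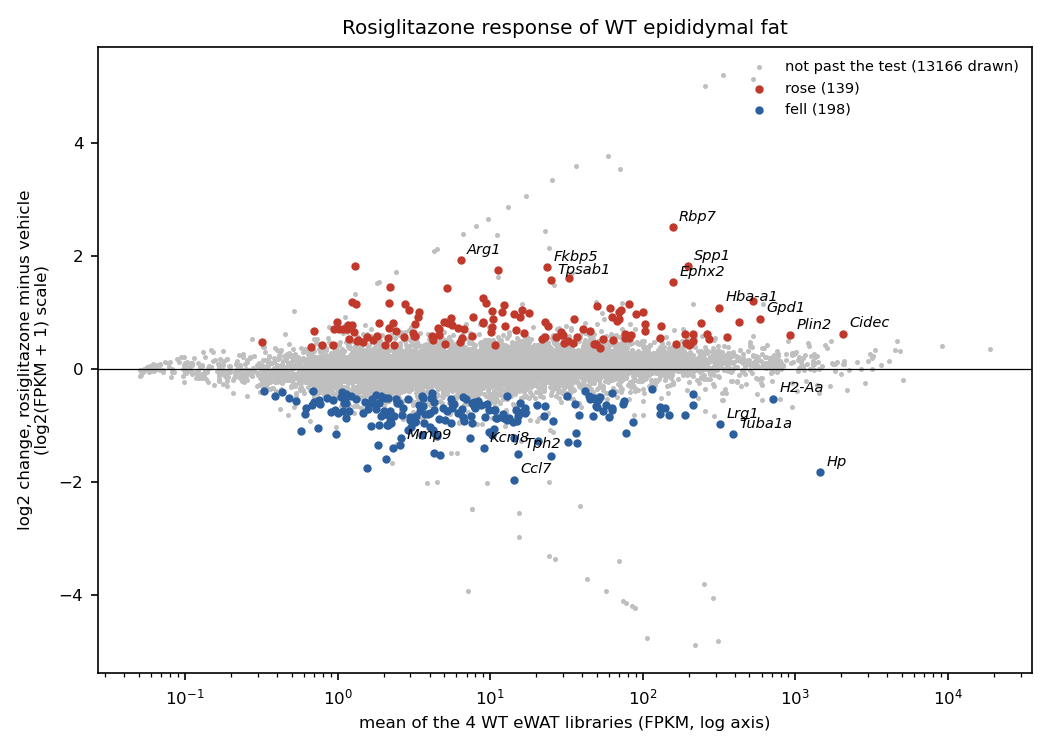
Log2 change with rosiglitazone in WT eWAT (vertical axis, log2(FPKM + 1) scale) against the mean of the 4 libraries (horizontal axis, FPKM, log scale); each point is a gene, red for the 139 that rose and blue for the 198 that fell. Cidec and Plin2 rose and Hp fell among the most abundant transcripts; grey points far from 0 are mostly short RNAs listed at 0 in some library, and genes with a mean of 0.05 FPKM or less are not drawn.

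Of the 337 genes, 8 passed in the main test and in all 16 alternative analyses: Rbp7, Spp1, Arg1 and Tpsab1, which rose, and Kcnj8, Mmp9, Tph2 and Tuba1a, which fell. The largest rise on the log2 scale was in Rbp7, a retinoid-binding protein of fat-tissue capillary endothelium (chromosome 4, 149449687 to 149454978, GRCm38). It stood at 41.0 and 51.3 FPKM in vehicle libraries 1 and 2 and at 231 and 305 FPKM in rosiglitazone libraries 1 and 2, a log2 change of 2.51 ± 0.10 (SE, adjusted p = 5.2e-06). Pparg itself (chromosome 6, 115360951 to 115490399) was at 89.4 and 73.4 FPKM after vehicle and 89.8 and 64.3 FPKM after rosiglitazone. Its groups overlapped, and its log2 change of -0.09 did not pass the test. Among 20 PPAR and RXR receptors and partners only Rxrg, an RXR subtype, rose (5.33 and 5.0 FPKM to 7.25 and 7.95 FPKM, log2 change 0.48 ± 0.10, adjusted p = 0.036), and none passed without the K107R vehicle libraries.

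**Figure D2:**
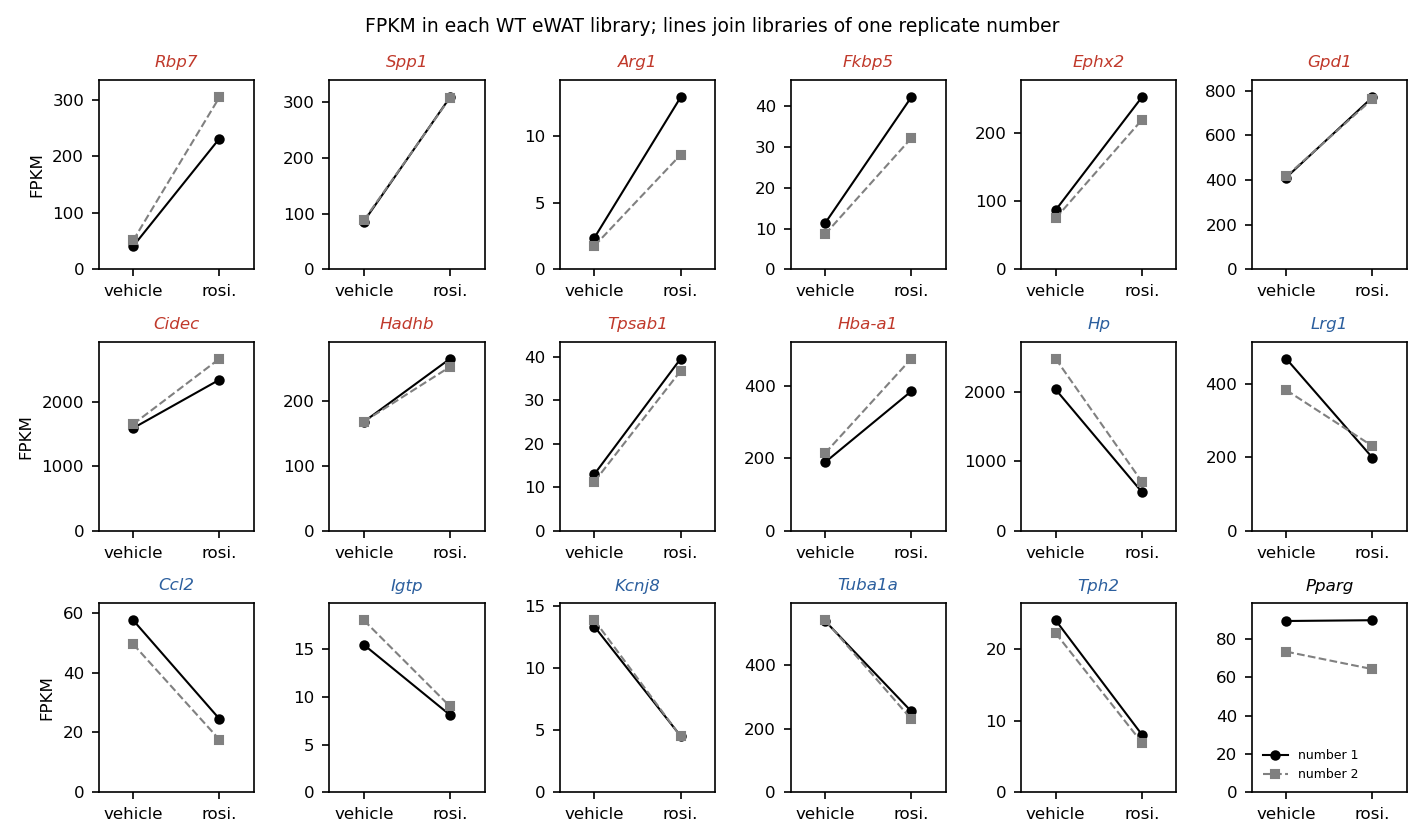
FPKM of 18 genes (linear vertical axes from 0) in each WT eWAT library, vehicle on the left and rosiglitazone on the right, with lines joining libraries of one replicate number; red titles rose, blue titles fell, and Pparg in black did not pass the test. In the 17 genes that passed, both lines run the same way and the treatments do not overlap, as in 335 of all 337 that passed.

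Some genes that coat the lipid droplet and build triglyceride rose with the drug. Of 12 droplet coat genes, 3 rose and none fell, beside 1.02% of all genes that rose, with a median log2 change of 0.42. None of the 12 passed without the replicate number in the fit, and 1 passed without any 1 of the 4 libraries. Cidec, which fuses droplets in white fat cells, was at 1590 and 1651 FPKM after vehicle and 2339 and 2663 FPKM after rosiglitazone (log2 change 0.62 ± 0.10, adjusted p = 0.011). Its gain of 880 FPKM in the mean was the largest of any gene that rose. Plin2, a coat protein of small droplets, was at 674 and 794 FPKM after vehicle and 1037 and 1189 FPKM after the drug. Plin5, which links droplets to mitochondria, rose from 5.37 and 7.24 FPKM to 11.1 and 17.1 FPKM (1.03 ± 0.09, adjusted p = 0.00065). In all 3 the lower treated library lay above the higher vehicle library. Plin1, the main coat protein of the white fat cell, overlapped between groups, with 471 and 637 FPKM after vehicle and 446 and 711 FPKM after rosiglitazone.

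Of 20 genes for glycerol supply and triglyceride assembly, 4 rose and 1 fell, with a median of 0.27. Gpd1, which makes glycerol 3-phosphate from a glycolytic intermediate, was at 411 and 416 FPKM after vehicle and 770 and 762 FPKM after rosiglitazone (0.89 ± 0.09, adjusted p = 0.0013). Pck1, the key enzyme of glyceroneogenesis in fat, was at 179 and 169 FPKM after vehicle and 300.3 and 311 FPKM after the drug (0.81 ± 0.09, adjusted p = 0.0016). Both genes thus stood apart by group in every library, with little spread within a group. Pcx, which supplies oxaloacetate, and Agpat2, an acyltransferase of triglyceride synthesis, also rose, by 0.50 and 0.62 on the log2 scale. The gene that fell was Mogat2, a monoacylglycerol acyltransferase, from 6.65 and 5.99 FPKM to 2.86 and 3.10 FPKM (-0.88 ± 0.12, adjusted p = 0.0052).

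Fatty acid handling around the cell moved less evenly. Of 17 uptake and activation genes, 2 rose: Acsl1, which activates fatty acids (360 and 253 FPKM to 623 and 460 FPKM, adjusted p = 0.043), and Gpihbp1, the endothelial anchor of lipoprotein lipase. Neither passed without the K107R vehicle libraries. Slc27a1, a fatty acid transporter, was at 151 and 115 FPKM after vehicle and 309 and 281 FPKM after the drug, with no overlap, yet its log2 change of 1.15 ± 0.31 did not pass (adjusted p = 0.11). Of 21 lipolysis genes only Mgll, which splits the last fatty acid from monoacylglycerol, rose (306 and 267 FPKM to 437 and 408 FPKM, adjusted p = 0.022). Pnpla2, the first lipase of the pathway, did not overlap between groups at 436 and 410 FPKM against 716 and 562 FPKM, and had an adjusted p of 0.066. Of 21 genes of fatty acid synthesis, 3 rose, with a median of 0.05. With each library rescaled to a common median ratio 2 of the 21 rose and 3 fell, and without the replicate number 1 rose. Acacb, whose product malonyl-CoA restrains fatty acid entry into mitochondria, was at 6.27 and 5.99 FPKM after vehicle and 11.6 and 11.8 FPKM after rosiglitazone (0.84 ± 0.09, adjusted p = 0.0015). Elovl3, an elongase of very long chain fatty acids, rose from 0.353 and 0.365 FPKM to 2.47 and 1.75 FPKM, and Thrsp, a lipogenic factor, rose by 0.43 on the log2 scale.

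Among genes of fatty acid oxidation, a minority passed the test and all of those rose. All 24 mitochondrial oxidation genes had a log2 change above 0, with a median of 0.42 against 0.03 for all genes, and 5 rose: Acadvl, Acadm and Acads, the dehydrogenases of long, medium and short chains, and Hadha and Hadhb, the subunits of the trifunctional protein. Hadhb was at 168 and 169 FPKM after vehicle and 266 and 253 FPKM after rosiglitazone (0.62 ± 0.13, adjusted p = 0.043). Its partner Hadha was at 101 and 109 FPKM after vehicle and 146 and 164 FPKM after the drug (0.55 ± 0.11, adjusted p = 0.025). In both the treated libraries lay wholly above the vehicle libraries. None of the 24 passed without the replicate number in the fit. The share of oxidation genes that rose was 5 of 24, beside 1.02% over all genes.

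The 2 subunit genes, which rose by like amounts, start head to head on chromosome 5, and their RefSeq starts leave 272 bases between them. The bases just before Hadhb, which make up most of that stretch, are shown because both subunits are read outward from it. These 250 bases (GRCm38.p6, chr5:30155003-30155252, plus strand) read, in lower case because they hold no match to the motifs sought below:
Hadhb: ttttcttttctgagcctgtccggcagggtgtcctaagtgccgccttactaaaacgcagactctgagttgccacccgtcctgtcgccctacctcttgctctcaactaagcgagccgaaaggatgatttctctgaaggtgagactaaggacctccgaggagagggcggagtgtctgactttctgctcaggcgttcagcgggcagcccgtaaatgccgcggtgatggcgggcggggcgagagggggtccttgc

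Peroxisomal oxidation contributed 2 genes of 21. Ehhadh, its bifunctional enzyme, rose from 10.3 and 8.59 FPKM to 21.0 and 17.7 FPKM, and Acaa1b, its thiolase, from 33.5 and 43.2 FPKM to 65.9 and 101 FPKM (1.08 ± 0.11, adjusted p = 0.0015). The citrate cycle, the respiratory chain and the breakdown of branched-chain amino acids had small positive values throughout. All 18, all 35 and all 22 of their genes had a log2 change above 0, with medians of 0.23, 0.26 and 0.19. Yet only 1 of these 75 passed; 5, 9 and 2 of the 3 lists had an unadjusted p under 0.05. Of 19 brown and beige fat genes, 4 rose: Plin5, Elovl3, Cox8b, a respiratory subunit, and Cited1, a beige marker. Plin5 and Elovl3 are counted above as well, and none of the 19 passed without the replicate number. Ucp1, the uncoupling protein itself, was at 1.91 and 1.53 FPKM after vehicle and 3.46 and 2.54 FPKM after rosiglitazone, and did not pass (adjusted p = 0.47).

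Of 27 genes of insulin signal and glucose use, 4 rose, beside 1.02% of all genes. None of the 27 passed without the replicate number, and at most 1 passed when any 1 library was left out. Slc2a4, the insulin-responsive glucose transporter, was at 24.1 and 20.7 FPKM after vehicle and 37.6 and 34.2 FPKM after rosiglitazone (0.66 ± 0.13, adjusted p = 0.033). Irs2, a substrate of the insulin receptor, was at 11.6 and 10.7 FPKM after vehicle and 18.3 and 18.8 FPKM after the drug (0.69 ± 0.10, adjusted p = 0.0076). Neither gene overlapped between groups. Pdk4 and Pdk2, kinases that shut pyruvate dehydrogenase, rose by 1.12 and 0.47 on the log2 scale. Among 18 adipokines, Fgf21 rose from 1.37 and 1.12 FPKM to 2.42 and 1.95 FPKM and C1qtnf9 fell from 34.5 and 33.8 FPKM to 18.1 and 16.9 FPKM. The call of Fgf21 was lost without the K107R vehicle libraries, and with rescaled libraries none of the 18 rose and 4 fell. Adiponectin, Adipoq, was at 1347 and 1484 FPKM after vehicle and 1885 and 2107 FPKM after rosiglitazone. Leptin, Lep, was at 822 and 623 FPKM after vehicle and 562 and 425 FPKM after rosiglitazone. Neither hormone overlapped between groups, and neither passed, with adjusted p of 0.13 and 0.27.

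Several enzymes of lipid signalling and oxidation stood out in size. Ephx2, the soluble hydrolase that degrades fatty acid epoxides, rose from 86.9 and 74.9 FPKM to 252 and 219 FPKM (1.53 ± 0.17, adjusted p = 0.0020). The cytochrome Cyp2e1 rose from 16.9 and 14.5 FPKM to 56.8 and 43.9 FPKM, and Cyp4b1 from 51.0 and 49.1 FPKM to 113 and 111 FPKM. These were the 3 of 20 epoxide and cytochrome genes that passed. Of 26 sphingolipid genes, 2 rose: Sptlc3, a serine palmitoyltransferase subunit at the first step of synthesis (0.686 and 0.754 FPKM to 3.88 and 3.47 FPKM, 1.44 ± 0.17), and Acer2, a ceramidase (11.2 and 9.28 FPKM to 23.6 and 20.7 FPKM). Beside Rbp7, the retinoid list gave Retsat, a retinol saturase, which rose by 0.45. Cholesterol synthesis gave no call among 23 genes, of which 19 lay below 0 and 2 had an unadjusted p under 0.05. The unfolded protein response gave none among 24, of which 1 had an unadjusted p under 0.05.

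**Figure D3:**
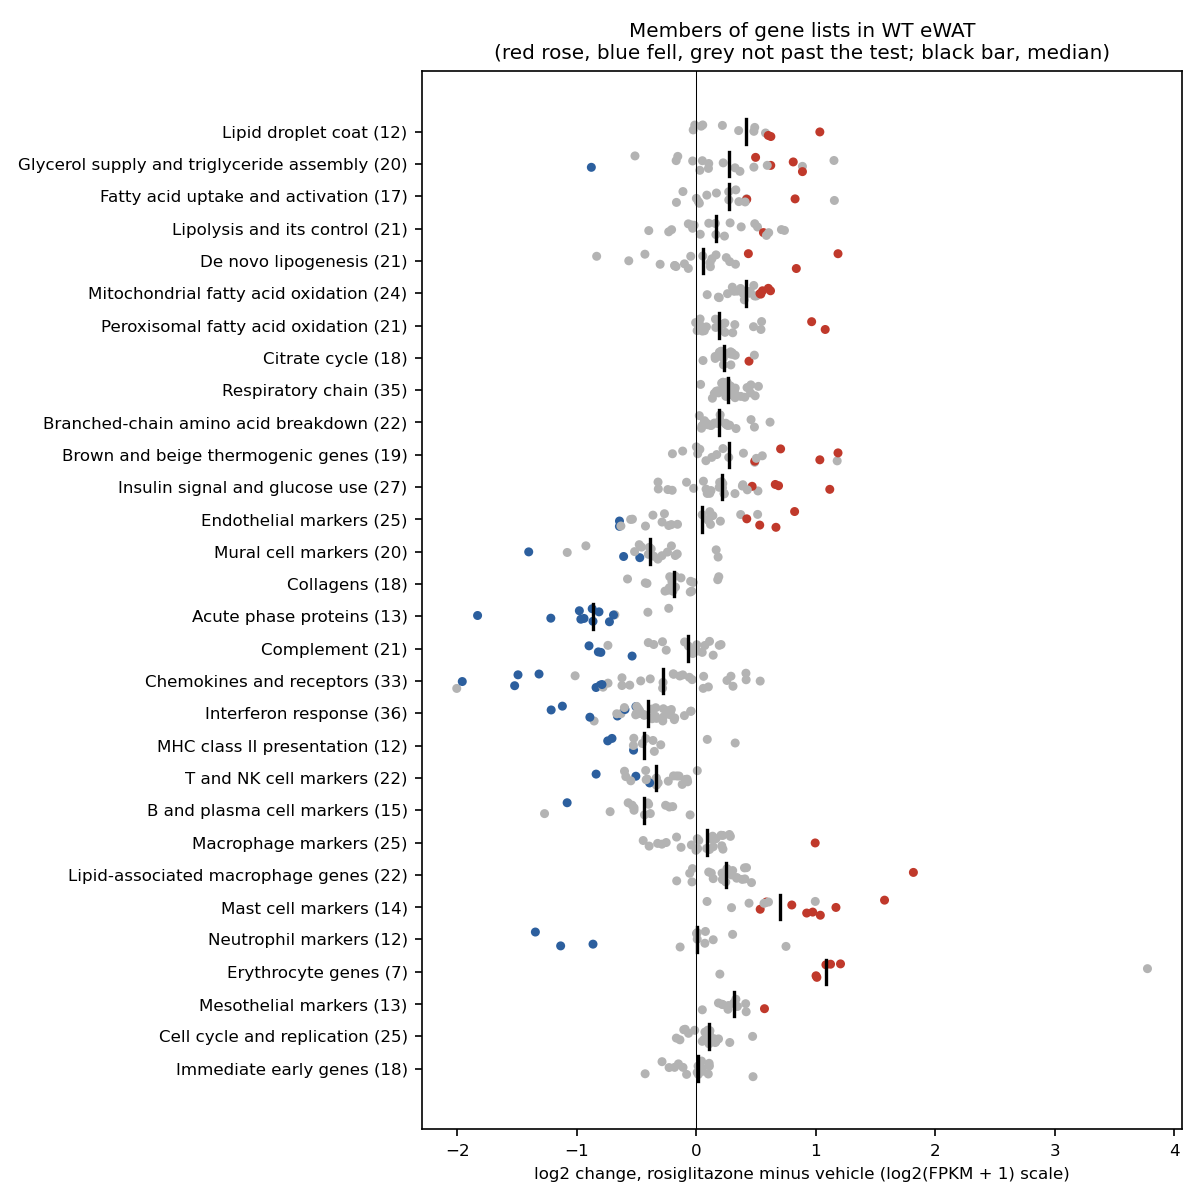
Log2 change with rosiglitazone in WT eWAT (horizontal axis, log2(FPKM + 1) scale) for every tested member of 30 gene lists, with the number tested in brackets; red points rose, blue fell, grey did not pass the test, and the black bar is the median. Storage, oxidation, mast cell and erythrocyte lists lie mostly above 0, and acute phase, interferon, MHC class II, lymphocyte and mural lists mostly below; the dots are spread vertically only to part them.

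The vessel wall split into genes that rose and genes that fell. Of 25 endothelial markers 4 rose and 2 fell. The 4 that rose were Gpihbp1, Cd300lg, Car4 and Btnl9, all known from capillary endothelium. Btnl9 was at 15.2 and 17.4 FPKM after vehicle and 27.4 and 31.8 FPKM after rosiglitazone (0.82 ± 0.10, adjusted p = 0.0025). Tie1, an endothelial receptor kinase, fell from 23.3 and 26.4 FPKM to 14.2 and 16.9 FPKM (-0.64 ± 0.08, adjusted p = 0.0033), and Egfl7, a secreted vessel protein, fell by 0.64. Further endothelial genes outside the list fell too, named after their values were seen: Heg1, Ecscr, Gja5, Pcdh12 and Podxl fell by 0.86, 0.87, 0.90, 1.00 and 0.73. The general markers Pecam1 (77.0 and 59.0 FPKM to 58.8 and 42.4 FPKM) and Cdh5 (86.9 and 76.0 FPKM to 68.2 and 58.1 FPKM) did not pass. Without the K107R vehicle libraries 2 of the 25 rose and 1 fell, with rescaled libraries 2 rose and 4 fell, and without the replicate number 1 rose and 0 fell. In a whole depot, fewer cells of a type and less RNA per cell cannot be told apart.

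Mural cells, the pericytes and smooth muscle around vessels, had lower values in 18 of 20 markers, with a median of -0.39, and 3 fell. Kcnj8, a potassium channel subunit of pericytes (chromosome 6, 142564837 to 142571614), was at 13.4 and 13.9 FPKM after vehicle and 4.54 and 4.52 FPKM after rosiglitazone (-1.40 ± 0.11, adjusted p = 0.00049). Cox4i2, a respiratory subunit also used as a pericyte marker, fell by 0.61 and Myl9, a smooth muscle myosin chain, fell by 0.47. Rgs5, a further pericyte marker, was at 41.4 and 26.4 FPKM after vehicle and 17.99 and 12.7 FPKM after the drug, and did not pass (adjusted p = 0.11).

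Matrix genes included some that fell and some that rose. None of 18 collagens passed, of which 16 lay below 0, with a median of -0.19, and 3 had an unadjusted p under 0.05. Of 32 matrix proteins, proteases and inhibitors 2 rose and 5 fell. Thbs1, thrombospondin 1, fell from 47.4 and 45.5 FPKM to 18.4 and 18.2 FPKM (-1.30 ± 0.16, adjusted p = 0.0027). Mmp9, a gelatinase, fell from 4.39 and 3.90 FPKM to 1.06 and 0.982 FPKM (-1.35 ± 0.11, adjusted p = 0.00040). Tenascin C (Tnc), fibronectin (Fn1) and the protease inhibitor Timp1 fell by 0.80, 0.45 and 0.51. The rising pair were the proteases Mmp11 (29.7 and 31.0 FPKM to 48.3 and 52.3 FPKM) and Adam8 (168 and 155 FPKM to 219 and 224 FPKM). Of 21 progenitor and fibroblast markers 2 fell: Sfrp4, a secreted Wnt binder, and Comp, a cartilage matrix protein (3.23 and 4.86 FPKM to 0.852 and 1.46 FPKM).

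Tuba1a, an alpha tubulin (chromosome 15, 98949837 to 98953703), was the 1 gene of 17 in the actin, tubulin and thymosin list that passed. It was at 538 and 540 FPKM after vehicle and 254 and 230 FPKM after rosiglitazone (-1.15 ± 0.08, adjusted p = 0.00027). Its mean fell by 297 FPKM, more than that of any other falling gene but Hp. Other genes with a large fall were Tph2, a tryptophan hydroxylase of serotonin synthesis best known from neurons (24.0 and 22.2 FPKM to 8.05 and 6.94 FPKM, -1.50 ± 0.15), and Oxtr, the oxytocin receptor (43.4 and 31.9 FPKM to 14.3 and 10.3 FPKM, -1.54 ± 0.24). Igfals, which holds IGF in circulating complexes, fell from 28.8 and 30.3 FPKM to 10.95 and 12.2 FPKM. In these 4 genes no treated library reached the lower vehicle library. Among rising genes outside the lists, Clstn3, a calsyntenin expressed in fat, went from 5.13 and 4.71 FPKM to 13.2 and 13.1 FPKM (1.26 ± 0.09, adjusted p = 0.00027).

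Acute phase proteins, which the liver secretes in inflammation and fat also makes, fell as the most complete list. All 13 tested lay below 0, with a median of -0.87, and 10 fell, beside 1.45% of all genes. Haptoglobin, Hp (chromosome 8, 109575128 to 109579172), was at 2037 and 2479 FPKM after vehicle and 561 and 709 FPKM after rosiglitazone (-1.83 ± 0.13, adjusted p = 0.00027). Its mean fell by 1623 FPKM, more than that of any other gene that passed. Lrg1, a leucine-rich glycoprotein, fell from 469 and 383 FPKM to 199 and 231 FPKM, and Serpina3n, a protease inhibitor, from 237 and 243 FPKM to 134 and 137 FPKM. Lbp, which binds bacterial lipopolysaccharide, fell from 129 and 99.7 FPKM to 66.1 and 52.1 FPKM. Hpx, Saa3, Lcn2, Orm2, Orm3 and Serpina3c fell by between 0.69 and 1.22 on the log2 scale; the Orm and Serpina3 copies can share reads. Without the replicate number in the fit, 3 of the 13 fell. Of 21 complement genes 4 fell: C4b (186 and 197 FPKM to 105 and 110 FPKM), Cfb (161 and 168 FPKM to 90.1 and 98.1 FPKM), C6 and Clu.

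Chemokine transcripts fell in 7 of 33 genes and rose in none. Ccl7, which attracts monocytes, was at 27.4 and 19.5 FPKM after vehicle and 6.13 and 4.40 FPKM after rosiglitazone (-1.96 ± 0.26, adjusted p = 0.0041). Its neighbour in function Ccl2 was at 57.5 and 49.5 FPKM after vehicle and 24.5 and 17.6 FPKM after the drug (-1.32 ± 0.23, adjusted p = 0.014). Both genes separated by group in every library. Ccl8 fell from 61.9 and 60.0 FPKM to 32.8 and 34.4 FPKM. Cxcl10, induced by interferon, fell from 8.40 and 5.21 FPKM to 2.14 and 1.34 FPKM (-1.49 ± 0.16, adjusted p = 0.0015). Cxcl13, Ccl19 and the receptor Cx3cr1 fell by 1.52, 0.81 and 0.79, while Ccr2, the receptor of Ccl2 and Ccl7, had values of 20.9 and 13.1 FPKM against 9.85 and 5.98 FPKM and an adjusted p of 0.060. Of 19 inflammatory mediators 6 fell: Ccl2, Ccl8 and Cxcl10, already counted as chemokines, Saa3 and Lcn2, already counted as acute phase proteins, and Nos2, the inducible nitric oxide synthase (3.495 and 2.89 FPKM to 1.12 and 1.08 FPKM, -0.99 ± 0.09). Without the replicate number in the fit, 1 chemokine gene and 2 mediators fell.

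The interferon response list lay lower in its entirety. All 36 genes had a log2 change below 0, with a median of -0.41, 24 had an unadjusted p under 0.05, and 6 fell: Iigp1, Zbp1, Igtp, Gbp2, Irf7 and Ifi44. Igtp and Iigp1, GTPases that act on vacuoles of intracellular parasites, fell from 15.5 and 18.1 FPKM to 8.12 and 9.02 FPKM and from 23.0 and 17.8 FPKM to 9.19 and 7.21 FPKM. Zbp1, a sensor of Z-form nucleic acid, fell from 12.9 and 14.9 FPKM to 5.17 and 6.57 FPKM (-1.12 ± 0.16, adjusted p = 0.0052). In each of the 3 the treated libraries lay wholly below the vehicle libraries. Without the replicate number 2 of the 36 fell.

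Interferon factors are known to bind paired GAAA repeats, the core of the interferon-stimulated response element. Copies of GAAA with any 2 bases between them were sought on both strands in the RefSeq promoter windows, which run from 250 bases before to 50 after a gene's start. They occurred in 14 of the 26 windows that interferon list genes had (53.8%), in 8 of the 130 windows of genes that fell (6.15%), in 2.80% of the windows of genes that rose, and in 3.83% of 10273 windows of genes tested. Of the 14 interferon list genes that held them only Igtp and Gbp2 fell, and the other 12 did not pass. Irf7 and Ifi44, which fell, held no match. Over all windows in the table the share was 3.99%. Stretches before the starts of 4 of the genes that fell are shown, picked because they hold a match, with the matched letters in capitals, on the gene's own strand (GRCm38.p6; chr5:92349068-92349127 minus for Cxcl10, chr11:58199497-58199555 plus for Igtp, chr3:142620579-142620638 plus for Gbp2 and chr4:42756539-42756598 minus for Ccl19):
Cxcl10: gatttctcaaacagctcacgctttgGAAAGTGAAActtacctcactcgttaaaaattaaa
Igtp: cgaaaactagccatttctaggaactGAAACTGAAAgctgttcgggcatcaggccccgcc
Gbp2: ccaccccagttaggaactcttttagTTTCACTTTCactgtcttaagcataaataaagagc
Ccl19: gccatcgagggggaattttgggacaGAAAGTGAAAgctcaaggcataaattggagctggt
In Igtp the match lies 25 to 34 bases before the start, and in Gbp2, where it is on the opposite strand, 50 to 59 bases before it.

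Antigen presentation and lymphocyte genes were lower as well. Of 12 genes of MHC class II presentation 3 fell, beside 1.45% of all genes, with a median of -0.44: Ciita, the master regulator of class II genes (8.33 and 8.44 FPKM to 4.80 and 4.70 FPKM, -0.71 ± 0.11), H2-Aa, a class II chain (828 and 860 FPKM to 586 and 585 FPKM), and H2-DMb2, a peptide-loading chain. None of the 12 passed without the replicate number or when any 1 library was left out. Of 22 T and NK cell markers 3 fell, the signal chain Cd247 (4.21 and 4.70 FPKM to 2.04 and 2.06 FPKM), Cd4 and the perforin gene Prf1, and 21 lay below 0. All 15 B and plasma cell markers lay below 0, with a median of -0.44, and Mzb1, a chaperone of antibody-making cells, fell (6.95 and 5.31 FPKM to 2.19 and 2.51 FPKM, -1.08 ± 0.14, adjusted p = 0.0037). The 15 markers together gave 69.7 and 48.1 FPKM after vehicle and 33.5 and 25.3 FPKM after rosiglitazone. Of 9 lymph node stroma markers Cxcl13 and Ccl19 fell, and none passed without the replicate number. Of the 9, 6 lay below 0 and 3 above it, Pdpn, Madcam1 and Chst4, and their sum was 76.5 and 56.9 FPKM after vehicle and 47.8 and 35.6 FPKM after the drug. Among its defining markers Ccl21a was at 7.34 and 8.28 FPKM against 1.04 and 1.35 FPKM, and Glycam1 at 1.26 and 0.522 FPKM against 0 and 0.0963 FPKM, and neither passed. The part of lymph node tissue in the lymphocyte result was not tested.

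Macrophage markers did not move as a group. Of 25 general markers only Mertk, a receptor for engulfing dead cells, rose (12.2 and 11 FPKM to 26.8 and 21.6 FPKM, 0.99 ± 0.12, adjusted p = 0.0025), and the median was 0.09. Adgre1, which encodes the F4/80 antigen, was at 159 and 149 FPKM after vehicle and 201 and 174 FPKM after rosiglitazone. Csf1r, the receptor for the macrophage growth factor, was at 177 and 187 FPKM after vehicle and 173 and 181 FPKM after the drug. Neither passed the test. Within this frame single genes changed by large amounts. Spp1, osteopontin (chromosome 5, 104435118 to 104441050), was at 86.0 and 88.1 FPKM after vehicle and 309 and 308 FPKM after rosiglitazone (1.82 ± 0.09, adjusted p = 3.3e-05), the only gene of 22 lipid-associated macrophage genes to rise. Trem2, the receptor that marks those macrophages, was at 331 and 296 FPKM against 423 and 395 FPKM and had an adjusted p of 0.054.

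Of 13 genes linked with alternative macrophage activation 2 rose and 2 fell. Arginase 1, Arg1 (chromosome 10, 24915221 to 24927484), rose from 2.38 and 1.77 FPKM to 12.9 and 8.62 FPKM (1.92 ± 0.13, adjusted p = 0.00027), and the lectin Clec10a from 54.4 and 43.8 FPKM to 91.7 and 88.8 FPKM. Its near relative Mgl2 fell from 20.1 and 17.0 FPKM to 11.5 and 10.1 FPKM, and Chil3, a chitinase-like protein, fell by 0.46. The list thus held members that went opposite ways. Cd5l, a secreted scavenger protein of tissue macrophages, rose from 2.74 and 1.91 FPKM to 9.31 and 6.76 FPKM (1.44 ± 0.17, adjusted p = 0.0025). Of 12 neutrophil markers 3 fell, S100a8, Lcn2 and Mmp9, genes that other cells of fat can also express. The granule genes Camp, Ngp and Mpo were at or near 0 in the 4 libraries, none above 0.522 FPKM.

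Mast cell genes rose more completely than any other immune list. All 14 tested lay above 0, with a median of 0.70, and 8 rose, beside 1.02% of all genes. The tryptase Tpsab1 (chromosome 17, 25343245 to 25345562) was at 13.0 and 11.3 FPKM after vehicle and 39.5 and 36.8 FPKM after rosiglitazone (1.57 ± 0.12, adjusted p = 0.00032). Tpsb2, a second tryptase, rose from 53.8 and 40.0 FPKM to 107.1 and 86.5 FPKM. The chymases Cma1 (44.6 and 41.4 FPKM to 83.8 and 81.0 FPKM) and Mcpt4 (58.5 and 62.1 FPKM to 109 and 131 FPKM) rose too, and so did Fcer1a, a chain of the IgE receptor (5.34 and 5.39 FPKM to 12.5 and 14.2 FPKM). In these 5 genes the groups were apart in all libraries. Hdc, which makes histamine, Ms4a2 and Mrgprb1 completed the 8. Kit, the growth factor receptor of mast cells, was at 4.73 and 3.63 FPKM against 6.85 and 5.22 FPKM and did not pass (adjusted p = 0.29), nor did Cpa3, at 39.7 and 32.1 FPKM against 79.5 and 65.4 FPKM (adjusted p = 0.16). Without the replicate number 2 of the 14 rose; tryptase and chymase copies can share reads.

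Erythrocyte genes moved in the same libraries. Of 7 tested 5 rose, with a median of 1.08. Hba-a1, an alpha globin, was at 189 and 214 FPKM after vehicle and 385 and 475 FPKM after rosiglitazone, and Alas2, the erythroid enzyme of heme synthesis, was at 8.20 and 6.55 FPKM against 19.1 and 15.4 FPKM. The summed level was 521 and 676 FPKM after vehicle and 1127 and 1678 FPKM after the drug, and the globin copies can share reads. The part of red cell RNA in the rises of blood-borne genes was not tested. Mesothelial markers, from the lining of the depot, lay above 0 in all 13, with a median of 0.31, and Cldn15, a tight junction gene, rose. Their sum was 129 and 116 FPKM against 162 and 159 FPKM, and its part in the results was not tested either. Cell cycle genes gave no call among 25 and immediate early genes none among 18, with 1 and 2 at an unadjusted p under 0.05; the nerve, dendritic cell and epididymal lists also gave none, with 1, 0 and 0.

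Most of these changes had a counterpart in inguinal fat. Of the 139 genes that rose in WT eWAT, 88 (63.3%) also rose in WT iWAT, which is 16.03% of the 549 that rose there (4.02% of genes tested), and 1 fell there. Of the 198 that fell, 126 (63.6%) also fell in WT iWAT, 31.1% of its 405 (2.96% of genes tested), and 9 rose there. The 2 comparisons share no library, but they share 1 estimate of the spread per gene from the 16-library fit. A gene with a small estimate passes more easily in both. The difference between the responses, tested gene by gene, passed for 33 of the 337, beside 0.519% of all genes tested. The 337 were picked by the eWAT response, which is part of this difference, so the picking itself raises their share. Rbp7 changed by 2.51 in eWAT and by 2.35 in iWAT, and the difference did not pass the test.

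**Figure D4:**
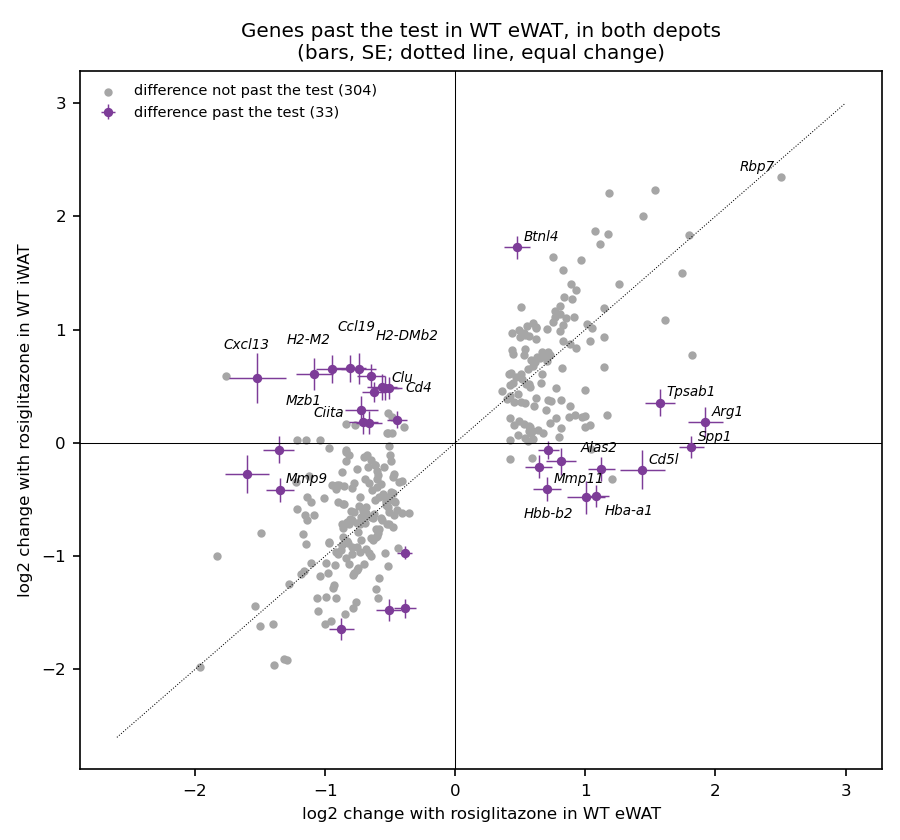
Log2 change with rosiglitazone in WT iWAT (vertical axis) against that in WT eWAT (horizontal axis) for the 337 genes that passed in WT eWAT; purple points with SE bars are the 33 whose difference between depots passed the test, and the dotted line marks equal change. Arg1, Spp1, Tpsab1 and Cd5l rose in eWAT with values near 0 in iWAT, and a set of lymphocyte and class II genes lies at upper left, lower in eWAT and above 0 in iWAT; labels mark the named genes.

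Among the genes that rose in eWAT and differed from inguinal fat were genes of macrophages, mast cells and red cells, the protease Mmp11 and Btnl4, which rose more in iWAT. Spp1 changed by 1.82 in eWAT and by -0.04 in iWAT, a difference of 1.85 on the log2 scale. For Arg1 the difference was 1.74, for Cd5l 1.68 and for Tpsab1 1.22. In WT iWAT the means after vehicle and drug were 0.386 and 0.570 FPKM for Arg1 and 0.886 and 0.592 FPKM for Cd5l. Those of Tpsab1 were 2.02 and 2.87 FPKM. The log2(FPKM + 1) scale shrinks changes at such low levels, and the part of this in the differences was not tested. The mast cell list had a median of 0.70 in eWAT and 0.07 in iWAT, with a difference that passed for 1 of its 14 genes, and the erythrocyte list 1.08 and -0.23. In the other direction, Cxcl13, Mzb1, Ccl19, H2-DMb2, Cd4 and Ciita fell in eWAT and had positive values in iWAT, with differences between -0.89 and -2.09. The B cell list had a median of -0.44 in eWAT and 0.61 in iWAT, and the lymph node stroma list -0.48 and 0.66; inguinal fat is known to enclose a lymph node, whose part in these differences was not tested. The mitochondrial oxidation list had a median of 0.42 in eWAT and 0.77 in iWAT, but no member's difference passed.

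Epididymal fat of K107R mice gave a further reference, with limits. The fit holds 1 term for the replicate number in all groups. K107R eWAT showed less of that shift after rosiglitazone, with Actb at 1460 and 938 FPKM in libraries 1 and 2. After vehicle, Actb was at 2016 and 96.9 FPKM there. The 2 K107R eWAT vehicle libraries hold epididymal epithelium RNA, with that marker list summing to 3415 and 3281 FPKM. The part of this RNA in any difference from the WT response was not tested. Of the 139 genes that rose in WT eWAT 90 (64.7%) also rose in K107R eWAT, 13.0% of its 690 (5.05% of genes tested), and of the 198 that fell 108 (54.5%) also fell there, 13.4% of its 804 (5.88% of genes tested). These overlaps, too, rest on a spread estimated jointly for both comparisons. The difference between genotypes passed for 86 of the 337, a share that the picking of the 337 by the WT response raises, beside 4.20% of all genes. That 4.20% includes all 12 tested genes of the epididymal marker list. With the FPKM minimum asked of the WT eWAT libraries, 165 of 12603 genes passed for this difference. Tpsab1 rose in WT eWAT by 1.57 and fell in K107R eWAT, where its log2 change was -1.15 (limma adjusted p = 1.1e-04), with a difference of 2.73. The interferon genes Iigp1, Cxcl10, Igtp and Zbp1 fell in WT eWAT, and did not pass in K107R eWAT at 0.62, 0.40, 0.19 and -0.05. The tested differences were -1.83 for Iigp1, -1.89 for Cxcl10, -1.08 for Igtp and -1.07 for Zbp1. The interferon list had a median of -0.41 in WT and 0.24 in K107R eWAT, beside 0.03 and 0.17 for all genes tested. Cxcl10 also differed between the vehicle groups, with means of 6.81 FPKM in WT and 1.66 FPKM in K107R eWAT. After the drug its means were 1.74 and 2.42 FPKM. The part of vehicle levels in these differences was not tested.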

How the data were processed

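RNA was read as 75-nt single ends from stranded mRNA libraries made from 4 ug of total RNA, per the labels' protocols. The submitters' processing notes name TopHat2 2.0.12 and Cufflinks 2.2.1, with CASAVA 1.8.2 and build mm10; annotation, strand setting and scaling are not given in the sources used here. The authors deposited FPKM values, which were used as they stand. Whole reads could not be recovered.

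Values were taken as log2(FPKM + 1), which shrinks changes of low genes. limma 3.58.1 (R 4.3.3, mean-variance trend) fitted 1 mean per group over 16 libraries plus a term for the replicate number, with 7 residual degrees of freedom; errors are SE. The 2 differences of responses are interaction contrasts in the same fit. The fit was tested on simulated data. The pairing rests on the replicate numbers in the labels, whose meaning is not stated. Deviations from group means correlated over genes between same-numbered libraries in 28 of 28 pairs of groups, at 0.121 to 0.791. The pairs with the K107R eWAT rosiglitazone group were the lowest, at 0.121 to 0.281, and all others were at 0.501 or more.

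The comparison, the 50 gene lists and the tests were chosen with earlier results of these data known. Named genes are of 3 kinds. Of genes that passed with libraries apart, at least 5 FPKM in the higher mean and no value of 0, they are the 15 per direction with the largest log2 change and the 8 with the largest FPKM change. With no level minimum, they are up to 5 called per list (2 with the smallest p where none was), and those with the largest differences between responses. Other genes given by name, such as Plin1, Ccr2 or Heg1, fall outside that rule and were chosen after their values were seen. Some genes that the rule or the lists hold are not reported here by name. Promoter windows and sequences are RefSeq's on GRCm38.p6, and other coordinates come from GENCODE on GRCm38, the assembly of mm10. Genes at 0 in 1 WT eWAT library and at 5 FPKM or more in another numbered 63, all short RNAs or their hosts.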

Additional observations from a re-analysis of the deposited data

Results flagged for a closer look

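The results given here are named genes whose response in WT eWAT differed, by a test of the difference itself, from that in WT iWAT or in K107R eWAT. Values are log2 differences, the WT eWAT response minus the other, at an adjusted p under 0.05 (limma). A higher response can thus be a larger rise or a smaller fall, and a lower response a smaller rise or a larger fall.

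Against WT iWAT, the response was higher in WT eWAT for Spp1 (1.85), Arg1 (1.74), Cd5l (1.68), Hba-a1 (1.55), Hbb-b2 (1.49), Alas2 (1.35), Tpsab1 (1.22) and the protease gene Mmp11 (1.12). It was lower for Cxcl13 (-2.09), Mzb1 (-1.69), the class I gene H2-M2 (-1.60), Ccl19 (-1.46), H2-DMb2 (-1.40), Btnl4 (-1.25), Clu (-1.02), Cd4 (-0.99), Mmp9 (-0.94) and Ciita (-0.89). Btnl4 rose in both depots and rose more in iWAT, and it can share reads with other Btnl genes. In WT eWAT it was at 0.110 and 0.102 FPKM after vehicle and 0.520 and 0.553 FPKM after the drug. No WT eWAT library thus reached the 1 FPKM minimum, which it met only through other groups. Its mean in WT iWAT was 0.203 FPKM after vehicle and 2.99 FPKM after the drug.

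Against K107R eWAT, the response was higher in WT for immune and blood genes Tpsab1 (2.73), Hbb-b1 (1.59), Hba-a1 (1.52), Hbb-b2 (1.45), Alas2 (1.19), Spp1 (0.98) and Mcpt4 (0.68). It was also higher for Clu (3.0), Thrsp (1.91), Ifi202b (1.81), Gdpd3 (1.73), Fkbp5 (1.4), Zbtb16 (1.35), Comp (0.99), Rbp7 (0.66) and Myl9 (0.61). Ifi202b was at 0.0118 and 0 FPKM in WT vehicle libraries 1 and 2 and at 3.09 and 2.07 FPKM in WT rosiglitazone libraries 1 and 2. Its means in K107R eWAT were 2.221 FPKM after vehicle and 2.199 FPKM after the drug. Its genotype difference thus goes with a vehicle level near 0 in WT eWAT only. Whether vehicle levels account for this difference was not tested. Clu and Comp fell in both genotypes and fell less in WT, by 0.54 against 3.54 for Clu and 1.22 against 2.21 for Comp. Clu had a mean of 266 FPKM in the K107R vehicle libraries and 22.1 FPKM in the K107R rosiglitazone libraries. Its mean in WT vehicle libraries was 57.4 FPKM. Clu was not checked for its share of epididymal RNA in the K107R vehicle libraries.

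Among genes of inflammation, the response was lower in WT than in K107R eWAT for Cxcl10 (-1.89), Iigp1 (-1.83), Ccl7 (-1.67), Mzb1 (-1.31), Mmp9 (-1.30), Igtp (-1.08), Zbp1 (-1.07), H2-M2 (-1.03), Chil3 (-1.02), Ccl8 (-0.87), Cd4 (-0.81), Cd247 (-0.66) and Irf7 (-0.62). Genes of fat metabolism and other functions with a lower response in WT were Elovl3 (-1.80), Btnl4 (-1.47), Ehhadh (-1.34), Sptlc3 (-1.34), Fgf21 (-1.15), Thbs1 (-0.96), Cox8b (-0.95) and Acadvl (-0.66).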

How the results depend on the processing

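No named gene that passed in WT eWAT changed direction under any of the 16 alternatives. Several of these leave the log2 change as it is, because the groups are balanced. Among them are the fits without the block, with library weights and with the eWAT libraries alone, and the direction could not change there. Of the 16, 2 (robust variance, and leaving out genes with a lone 0) were added after seeing the data and gave 334 and 331 genes. Without the replicate block 61 genes passed (23 rose, 38 fell), and the depot difference passed for 5 genes and the genotype difference for 346. With a block for each depot 529 passed (215 rose, 314 fell), and the depot difference for 130. With library weights 200 passed (84 rose, 116 fell), and the 2 differences for 114 and 316. The 4 WT eWAT libraries alone gave 177 (70 rose), with 1 residual degree of freedom. The eWAT libraries alone gave 14 (5 rose, 9 fell), with 3, and 376 for the genotype difference. Leaving out 1 library gave 82 to 91 (33 to 44 rose, 38 to 52 fell), and 4 to 18 for the depot difference; each left-out library lowered the count by over 1.5 times, and the lone library left in a group is assumed to vary like the others. For the depot difference a pseudocount of 0.1 gave 46 and rescaled libraries 111, beside 71. For the genotype difference the filter in WT eWAT gave 165 of 12603 genes, beside 574 of 13669. Causes of these shifts were not tested. Pparg, not past the test, ranged from -0.34 to 0.15 over the fits that leave out a library, above 0 (0.15 and 0.04) without vehicle library 2 and without rosiglitazone library 1. Of the 121 named genes that passed, 32 also passed without the block, 66 with the 4 WT eWAT libraries alone and 11 with the eWAT libraries alone. The medians of 17 of 50 lists had the opposite sign under some alternative. Depth is unknown, so what it limits cannot be stated.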

Other observations

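Genes known to be induced by glucocorticoids gave large but uneven values; the list of 17 was chosen after values were seen and gets no test. Fkbp5, a chaperone partner of the glucocorticoid receptor, was at 11.3 and 8.58 FPKM in vehicle libraries 1 and 2 and 42.1 and 32.1 FPKM in rosiglitazone libraries 1 and 2 (log2 change 1.8 ± 0.23, adjusted p = 0.0037, limma). Zbtb16, a zinc finger factor, was at 5.96 and 3.48 FPKM against 20.6 and 15.2 FPKM (1.74 ± 0.22, adjusted p = 0.0033). Both rose by like amounts in WT iWAT, by 1.83 and 1.5, and had 0.40 and 0.40 in K107R eWAT. The Fkbp5 means after vehicle and drug were 9.93 and 37.1 FPKM in WT eWAT and 28.0 and 35.5 FPKM in K107R eWAT. Its K107R vehicle libraries had an SD of 12.2 FPKM. The part of vehicle levels in the difference between genotypes was not tested. Of the 17, 3 rose (also Pdk4) and 2 fell, and none passed without the replicate number. Others had higher values in both pairs and did not pass: Per1 was at 21.4 and 18.7 FPKM against 24.4 and 21.1 FPKM, and Tsc22d3 at 73.2 and 34.2 FPKM against 103 and 55.9 FPKM. The metallothionein Mt2 fell from 313 and 209 FPKM to 203 and 133 FPKM, and Lcn2 fell too.

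Receptors for hormones were among genes that rose outside the lists, named after their values were seen. Klb, the co-receptor of Fgf21, went from 6.43 and 6.01 FPKM to 12.4 and 10.9 FPKM (0.81 ± 0.12). Epor, the erythropoietin receptor, went from 9.95 and 10.8 FPKM to 18.2 and 23.3 FPKM (0.92 ± 0.13). Gcgr, the glucagon receptor, went from 0.497 and 0.718 FPKM to 1.70 and 1.79 FPKM. Among genes that fell, Ptch1, a receptor of hedgehog ligands, went from 2.81 and 2.72 FPKM to 1.39 and 1.11 FPKM. Bcl3 and Nfkbie, regulators of NF-kB, fell by 0.87 and 0.66.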
